A study of Mus musculus with 18 samples.

Results

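Cortical inhibitory neurons make GABA and are recognised by a small set of genes for its synthesis and transport, by the transcription factors that specify them, and by the peptides and calcium buffers that mark their subclasses. The levels of 30 such identity genes were read in homogenate RNA of medial prefrontal cortex, taken from C57BL6/J mice at postnatal day 100, in 18 libraries of which 9 came from animals on a control diet and 9 from animals on chow with PLX5622 at 1200 mg/kg. PLX5622 inhibits CSF1R, the receptor that microglia need to survive, and the libraries address whether interneuron transcripts differ once microglia are depleted. The genes were chosen by their symbols as known markers of these cells, and all 30 were found among the 54547 gene identifiers of the deposited tables, each with at least 1 count in every library. The labels describe 21 days of diet, then 44 days of drinking 15% ethanol every other day, with tissue taken 24 hours after the last exposure. That text is identical on both diets and names PLX5622 on the control animals as well, so ethanol exposure is taken as common to all animals and diet is the only contrast. A library carries 1 animal number in its title and the labels name no litters or cages, so the p-values measure the spread between these samples.

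Excitatory output of the cortex is held in check by these cells, which fall into families by origin. Neurons from the medial ganglionic eminence depend on Lhx6 and become the Pvalb class, which inhibits cell bodies, or the Sst class, which inhibits dendrites. Neurons from the caudal ganglionic eminence express Adarb2 and Prox1 and become the Vip class, which mainly inhibits other interneurons, or the Lamp5 and Sncg classes. Several identity genes are not private to interneurons: Cck and Calb1 are also made by pyramidal cells, Sox6 by oligodendrocyte precursors, Prox1 by oligodendrocytes, and Tac1 by striatal projection neurons. In homogenate, fewer cells of a type and less RNA per cell cannot be told apart.

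Depth ran from 990136 to 1742680 counts per library (median 1384979). The diet labels were checked on 11 microglial markers, all of which fell by edgeR's quasi-likelihood test at an adjusted p under 0.05. Their summed level, as CPM (counts scaled to library size with TMM factors), was 456 ± 47 in the 9 controls and 142 ± 25 in the 9 PLX5622 libraries (SD). Markers of pyramidal neurons summed to 4401 to 5045 CPM in controls and 4242 to 4970 CPM with PLX5622. A list of striatal projection neuron markers summed to 869 to 960 and 847 to 948 CPM in the same order. Most of this striatal sum in controls came from Foxp1 and Pde10a, with means of 366 and 350 CPM. Drd2 and Adora2a had 5 and 4 counts over the controls. How much of the sum came from striatal cells was not tested. The 9 interneuron markers summed to 1230 to 1366 and 1222 to 1396 CPM, so the tissue carried interneuron RNA in every library. Counts behaved as strand-specific counts over whole genes: of 456 protein-coding genes lying inside another gene on the same strand 7 had a count, against 537 of 821 lying inside a gene on the other strand only. Levels are therefore compared between libraries, not between genes. Dlx1 and Dlx6 lie wholly under antisense genes, and Lhx6 and Satb1 share 2.2% and 0.8% of their exon bases with genes on their own strand.

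No identity gene passed the test for diet. Of the 30 genes 25 passed the filter on low counts, and 0 were called lower and 0 higher by edgeR's quasi-likelihood test, by DESeq2 or by limma-voom. None of the 25 had an unadjusted p under 0.05 in any of the 3 tests. Among all 11051 genes tested, 0.353% were called lower and 0.0452% higher (0.398% together), and 3.22% and 3.57% had an unadjusted p under 0.05 in those directions (6.79% together). The median log2 fold change (PLX5622 over control) of the 25 genes was -0.02, with a range from -0.26 to 0.09, against a median of 9.93e-05 for all genes tested. Values were negative in 17 of the 25 genes and positive in 8, where 50% of all genes tested lay on each side. The genes share cells and libraries, so these counts are not independent observations.

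A threshold missed does not by itself show equal levels, so the 95% interval of each difference is given. In all 25 tested genes the interval lay inside a 1.5-fold difference in either direction. The 5 whose interval lay inside 1.1-fold were Gad2, Sst, Cck, Satb1 and Erbb4, with bounds between -0.13 and 0.12 on the log2 scale. The widest belonged to Tac2, from -0.50 to 0.38, which rested on 95 counts in each diet. These intervals are per gene and are not adjusted for the number of genes.

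**Figure D1:**
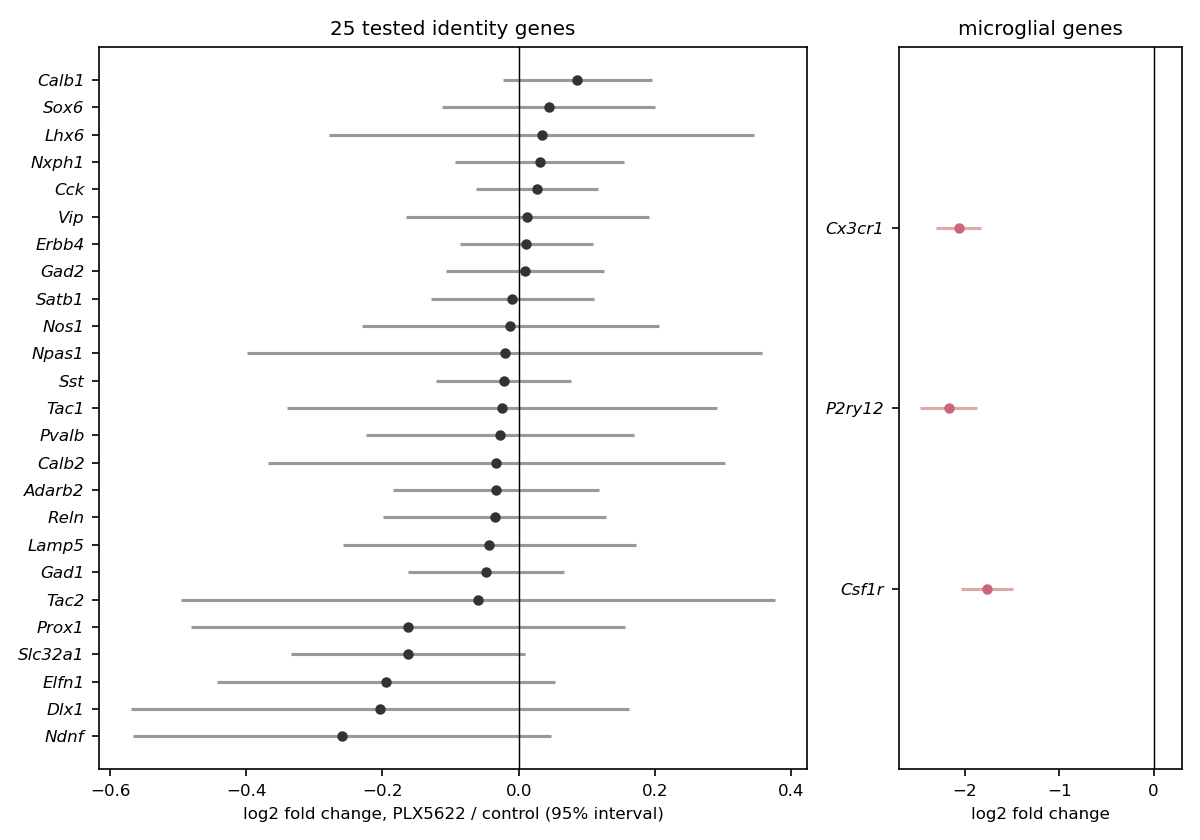
Log2 fold changes of the 25 tested identity genes (left, points, with 95% intervals as bars) and, on a wider axis, of 3 microglial genes (right), PLX5622 over control, 9 libraries per diet. Every interval of an identity gene crosses 0, while Csf1r, P2ry12 and Cx3cr1 lie at -1.77, -2.17 and -2.06.

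GABA is made by 2 decarboxylases and loaded into vesicles by 1 transporter. Gad1, which encodes the decarboxylase GAD67 that supplies most GABA, is placed by GENCODE M21 (GRCm38) at bases 70553072 to 70602014 of chromosome 2. Its level ran from 142 to 192 CPM in controls with a median of 166, and from 136 to 184 CPM with PLX5622 with a median of 161. The ranges overlapped almost entirely, and the log2 fold change was -0.05 ± 0.06 (SE, edgeR adjusted p = 0.953). Gad2, for the synaptic decarboxylase GAD65, had a lowest, median and highest level of 133, 160.1 and 171 CPM in controls. The corresponding values with PLX5622 were 133, 161 and 184 CPM, with a log2 fold change of 0.01 ± 0.06 (adjusted p = 0.998). Thus the low ends coincided, and 1 PLX5622 library lay above every control.

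Slc32a1, the vesicular GABA transporter, had the smallest p among the identity genes. It ran from 50.2 to 74.5 CPM with a median of 60.5 in controls, and from 47.7 to 61.4 CPM with a median of 54.9 with PLX5622. All 9 PLX5622 libraries lay within or below the control range, 4 of them below the lowest control. The log2 fold change was -0.16 ± 0.09 (SE, unadjusted p = 0.063, adjusted p = 0.766), with an interval from -0.33 to 0.01. Leaving out 1 library gave log2 fold changes of -0.19 to -0.12, with an unadjusted p under 0.05 in 6 of 18 cases and an adjusted p of at least 0.623 in all alternatives run.

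**Figure D2:**
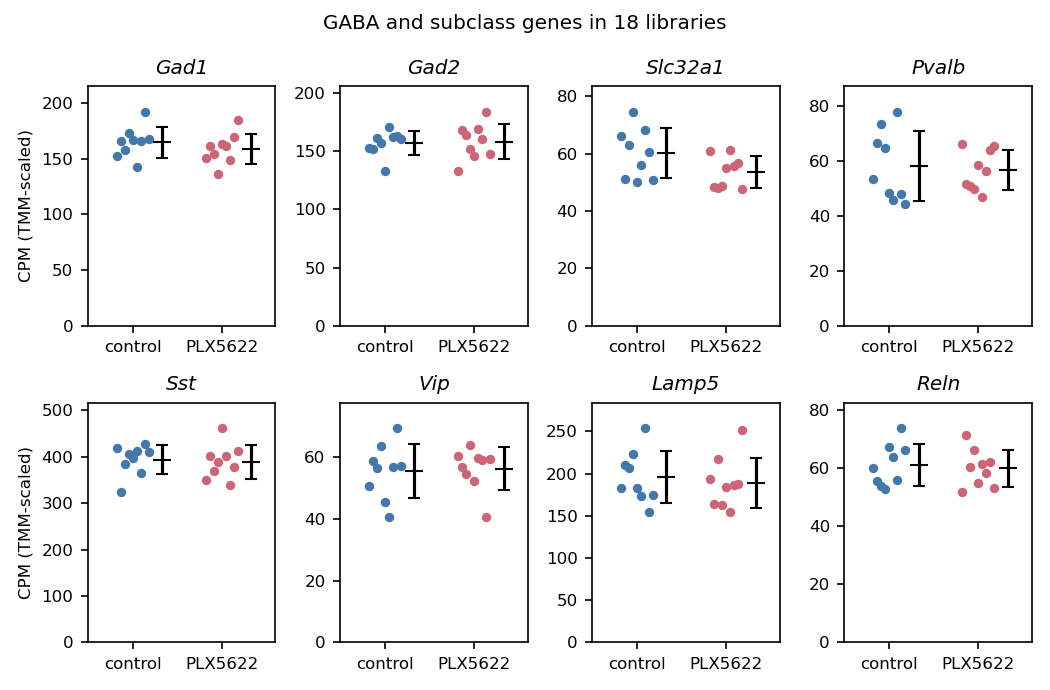
Level of 8 identity genes (CPM, TMM-scaled, axes from 0) in each of the 9 control and 9 PLX5622 libraries, with the mean and SD as bars beside the points. The diets overlap in every panel, and Pvalb and Lamp5 scatter widely within both.

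The Sst and Pvalb classes are the main products of the medial ganglionic eminence. Sst encodes somatostatin, a peptide released onto dendrites, and lies on chromosome 16 from 23889573 to 23890958. Its lowest, median and highest levels were 324, 406 and 428 CPM in controls and 340.1, 389 and 462 CPM with PLX5622. The library that was highest of all 18 was on PLX5622 and the lowest was a control, and the log2 fold change was -0.02 ± 0.05 (SE, adjusted p = 0.981). Pvalb encodes parvalbumin, a calcium buffer of fast-spiking cells, and ran from 44.3 to 77.7 CPM with a median of 53.4 in controls. With PLX5622 it ran from 46.8 to 66.2 CPM with a median of 56.3, inside the control range, and the log2 fold change was -0.03 ± 0.10 (adjusted p = 0.989).

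The other genes assigned to this origin gave no call either. Of 11 genes 10 were tested, with a median log2 fold change of -0.01 and a range from -0.19 to 0.09. Lhx6, the LIM homeodomain factor that specifies the lineage, ran from 10.7 to 20.1 CPM in controls and from 12.9 to 20.3 CPM with PLX5622 (log2 fold change 0.03 ± 0.16). Sox6 and Satb1, which act downstream of Lhx6 in maturing cells, were at 0.04 ± 0.08 and -0.01 ± 0.06. Elfn1, a postsynaptic protein that sets the properties of excitatory synapses onto Sst cells, ran from 20.2 to 31.4 CPM with a median of 27.2 in controls and from 15.5 to 29.0 CPM with a median of 22.6 with PLX5622. It lay below the lowest control in 3 PLX5622 libraries, with a log2 fold change of -0.19 ± 0.12 (adjusted p = 0.830). Calb1, the buffer calbindin, had the highest positive value of the tested identity genes. It ran from 164 to 214 CPM with a median of 189 in controls and from 176 to 221 CPM with a median of 198 with PLX5622, a log2 fold change of 0.09 ± 0.05 (adjusted p = 0.830). Both groups shared most of their range, with 2 PLX5622 libraries above every control. Nxph1, a secreted neurexin ligand, was at 0.03 ± 0.06, Tac1, the substance P precursor, at -0.02 ± 0.16 and Nos1, the neuronal nitric oxide synthase, at -0.01 ± 0.11.

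Vip and Lamp5 were read as markers of the classes from the caudal ganglionic eminence. Whether other cells added to their reads was not tested. Vip, the vasoactive intestinal peptide gene on chromosome 10 from 5639218 to 5647617, had a lowest, median and highest level of 40.7, 56.7 and 69.4 CPM in controls. With PLX5622 these were 40.6, 59.1 and 64.1 CPM, so the low ends were alike and 6 of 9 PLX5622 libraries lay above the control mean. The log2 fold change was 0.01 ± 0.09 (SE, adjusted p = 0.998). Lamp5, a membrane protein of neurogliaform cells, ran from 154 to 254 CPM with a median of 183 in controls. With PLX5622 it ran from 154 to 251 CPM with a median of 186, nearly the same range, and the log2 fold change was -0.04 ± 0.10 (adjusted p = 0.982). Lamp5 was highest in control 9 and PLX5622 35, which also held the highest pyramidal sums of their diets, 5045 and 4970 CPM. The control lowest in Lamp5, control 10, had a pyramidal sum of 4444 CPM, near the lowest control sum of 4401 CPM. The PLX5622 library lowest in Lamp5, 31, had 4514 CPM, where the lowest sum of that diet was 4242 CPM. The relation of Lamp5 with the pyramidal sum was not tested.

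Of the 11 genes of this origin 10 were tested, with a median of -0.03 and a range from -0.26 to 0.03 (log2). Ndnf, a secreted factor of layer 1 neurogliaform cells, had the lowest value of the tested identity genes. It ran from 10.8 to 22.9 CPM with a median of 18.9 in controls and from 7.60 to 19.9 CPM with a median of 16.4 with PLX5622, with 7 of 9 PLX5622 libraries below the control mean. The log2 fold change was -0.26 ± 0.15 (SE, adjusted p = 0.809), and the interval ran from -0.57 to 0.05. Adarb2, a member of the RNA-editing deaminase family that marks the lineage, was at -0.03 ± 0.07, and Npas1, a bHLH-PAS factor, at -0.02 ± 0.19. Several of these genes also occur in Sst cells. Reln, the matrix glycoprotein reelin, was at -0.04 ± 0.08 and Cck, the cholecystokinin gene, at 0.03 ± 0.04. Calb2, the buffer calretinin, was at -0.03 ± 0.17, and Tac2, the neurokinin B precursor, at -0.06 ± 0.22. Prox1, a homeodomain factor needed for these cells to mature, was at -0.16 ± 0.16.

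The balance between subclass genes was set out as shares. Of the reads of the 4 genes Sst, Lamp5, Pvalb and Vip in a library, Sst held 56.1% ± 5.1 in controls and 56.4% ± 3.7 on the PLX5622 diet (SD, 9 libraries per diet). The share of Lamp5 was 27.8% ± 3.6 and 27.3% ± 3.3, that of Pvalb 8.22% ± 1.59 and 8.19% ± 1.0, and that of Vip 7.88% ± 1.17 and 8.19% ± 1.19. These shares reflect reads per gene, not numbers of cells, and no test was made on them. Between libraries the Sst share ran from 48.5% to 61.4% in controls and from 52.2% to 61.0% with PLX5622, a wider range than the gap between the diet means.

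**Figure D3:**
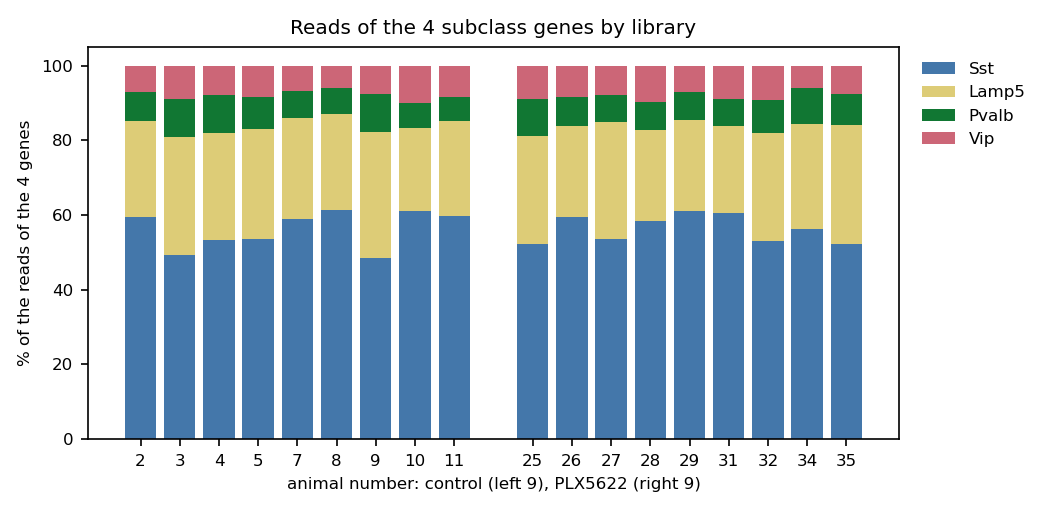
Share of Sst, Lamp5, Pvalb and Vip in the reads of these 4 genes (stacked bars, percent), by library, with control animals on the left and PLX5622 animals on the right. The Sst share lies between 48.5% and 61.4% in all 18 libraries, with no step between the diets.

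The homeodomain factors of the Dlx family, which all forebrain GABA neurons use, were near the floor of detection. Dlx1 was tested and ran from 6.95 to 17.0 CPM with a median of 10.8 in controls and from 7.01 to 14.8 CPM with a median of 10.7 with PLX5622, the latter inside the control range (log2 fold change -0.20 ± 0.18, SE, edgeR adjusted p = 0.910). Dlx2, Dlx5 and Dlx6 were too low for the filter, with 37 and 53, 46 and 61, and 73 and 67 counts over the 9 libraries of each diet in the order control, PLX5622. Cort, the peptide cortistatin of Sst cells, with 91 and 79 counts, and Sncg, gamma-synuclein of Cck-type basket cells, with 21 and 34 counts, were also too low. In a fit of all genes with at least 1 count these 5 genes had log2 fold changes between -0.25 and 0.62, and an adjusted p of at least 0.700. Sncg carried the highest value, 0.62 ± 0.41, with an interval from -0.19 to 1.43, which reached past a 2-fold difference at this depth. Erbb4, the neuregulin receptor that interneurons share, ran from 419 to 502 CPM in controls and from 389 to 529 CPM with PLX5622. The PLX5622 libraries spread beyond the controls at both ends, with 3 below and 2 above, at a log2 fold change of 0.01 ± 0.05 (adjusted p = 0.995).

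Sst and Vip are known targets of CREB, the factor that binds the cAMP response element when neurons are active. The element is shown for the peptide genes the comparison turns on, Sst and Vip, and for the 2 other identity genes whose promoters hold its core, from RefSeq promoters of GRCm38.p6, which span the start of transcription. Windows of 30 bases are written 5′ to 3′ on the strand of the gene, with the element in capitals.
Sst, chr16:23890874-23890903, minus strand: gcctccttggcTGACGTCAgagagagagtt
Vip, chr10:5639127-5639156, plus strand: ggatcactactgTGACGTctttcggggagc
Dlx2, chr2:71546795-71546824, minus strand: gctgttgctaggTGACGTtgcccgcggtca
Sox6, chr7:116038866-116038895, minus strand: gggactctgatgTGACGTgtagattttttt
The palindrome TGACGTCA was found in the promoter of Sst, where it begins at position -48 from the RefSeq start, a start that lies inside the longer GENCODE span given above. The core TGACGT, which the palindrome contains, was found on either strand (as ACGTCA when read on the other) in those of Sst, Vip, Dlx2 and Sox6, among the 25 identity genes with a promoter in the table. Of 32851 promoters of this length, 1.79% held the palindrome and 7.51% the core. Identity genes were counted by gene and these shares by promoter, so they are not set against each other. The log2 fold changes with diet of Sst, Vip and Sox6 were -0.02, 0.01 and 0.04. Dlx2, too low for the filter, was at 0.45 ± 0.32 (SE) in the fit of all genes with at least 1 count. Whether the element is occupied was not measured.

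Other genes of interneurons and GABA handling were read on a separate list of 38, of which 28 could be tested. By edgeR's test 1 of these fell and 0 rose, where 0.353% and 0.0452% of all genes tested did. An unadjusted p under 0.05 was found in 2 of the 28, against 6.79% of all genes tested. The median was -0.03 (log2). The gene that fell was Maf, a transcription factor of interneurons from the medial ganglionic eminence that microglia and other macrophages also express, on chromosome 8 from 115682942 to 115707794. Its lowest, median and highest levels were 63.3, 68.7 and 72.9 CPM in controls and 47.0, 54.5 and 62.5 CPM with PLX5622. All 9 PLX5622 libraries lay below every control, and the log2 fold change was -0.34 ± 0.08 (SE, edgeR adjusted p = 0.015). The 11 microglial markers fell in the same libraries and Lhx6, Sox6 and Satb1 did not pass the test, and the part of microglial RNA in the value of Maf was not tested. Without control 8 and PLX5622 28 together the adjusted p of Maf was 0.057, the highest of its 27 alternatives, which began at 0.0059. Cxcl14, a chemokine gene of Vip and Lamp5 class cells, was at 0.20 ± 0.09 (adjusted p = 0.592). Slc6a13, a GABA transporter of the meninges, was at 0.31 ± 0.17 (adjusted p = 0.797).

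The animal numbers in the titles are the one order among libraries that the labels give. With the position of the number within its diet, 1 to 9, as a term beside diet, 0 of the 25 genes were called by edgeR or by DESeq2, against 0.308% of all genes tested by edgeR. Gad1 had the smallest p, with a slope of 0.02 ± 0.01 per position (log2, SE, unadjusted p = 0.041, adjusted p = 0.518), where 9.27% of all genes had an unadjusted p under 0.05 (4.81% with a negative and 4.45% with a positive slope). Slopes were positive in 9 of the 25 genes, against 50.3% of all genes. Calb2 ran from 10.0 to 32.5 CPM with a median of 15.0 in controls, where 1 library stood well above the rest, and from 9.62 to 25.3 CPM with a median of 16.5 with PLX5622. The slope of Calb2 was 0.05 ± 0.03 (adjusted p = 0.595) and that of Gad2 0.02 ± 0.01 (adjusted p = 0.701). Leaving out 1 library gave slopes of 0.02 to 0.07 for Calb2, the lowest without control 10 (adjusted p = 0.909; range over these fits from 0.500). For Gad2 the slopes were 0.01 to 0.02, the lowest adjusted p 0.535 and the highest 0.930, without PLX5622 25. No identity gene had a slope that differed between the diets after adjustment, and 0% of all genes did, while 4.55% had an unadjusted p under 0.05. Nxph1 was the identity gene among these (unadjusted p = 0.041, edgeR adjusted p = 0.986). With position in the model the lowest adjusted p for diet among the 25 genes was 0.730.

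Libraries of 1 diet differed from each other far more in some identity genes than in others. The SD between libraries of a diet was set against the SD that read counting alone would give, and the part beyond counting was expressed as a percent of the mean. The median of this part was 7.79% over the 25 genes and 5.06% over all 11051 tested genes. For the 15 identity genes with a mean of at least 50 CPM it was 7.02%, against 4.91% for the 4580 tested genes of such a level. Among these 15, Lamp5 varied by 14.5% beyond counting and Pvalb by 14.1%, higher than in 98.0% and 97.7% of the genes of at least 50 CPM. Adarb2 followed with 11.3%, Nxph1 with 9.37%, Vip with 7.98%, Erbb4 with 7.79% and Sst with 7.58%. Gad1, Gad2 and Satb1 varied by 5.08%, 4.67% and 4.83%, and Reln by 0.781%. Of the 10 genes under 50 CPM, where counting error is larger, Calb2 varied by 24.4%, Prox1 by 21.5%, Tac1 by 15.8% and Nos1 by 14.1%. Thus Gad1 and Gad2 lay near the middle of the genes of at least 50 CPM in spread, and Lamp5 and Pvalb near the top.

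**Figure D4:**
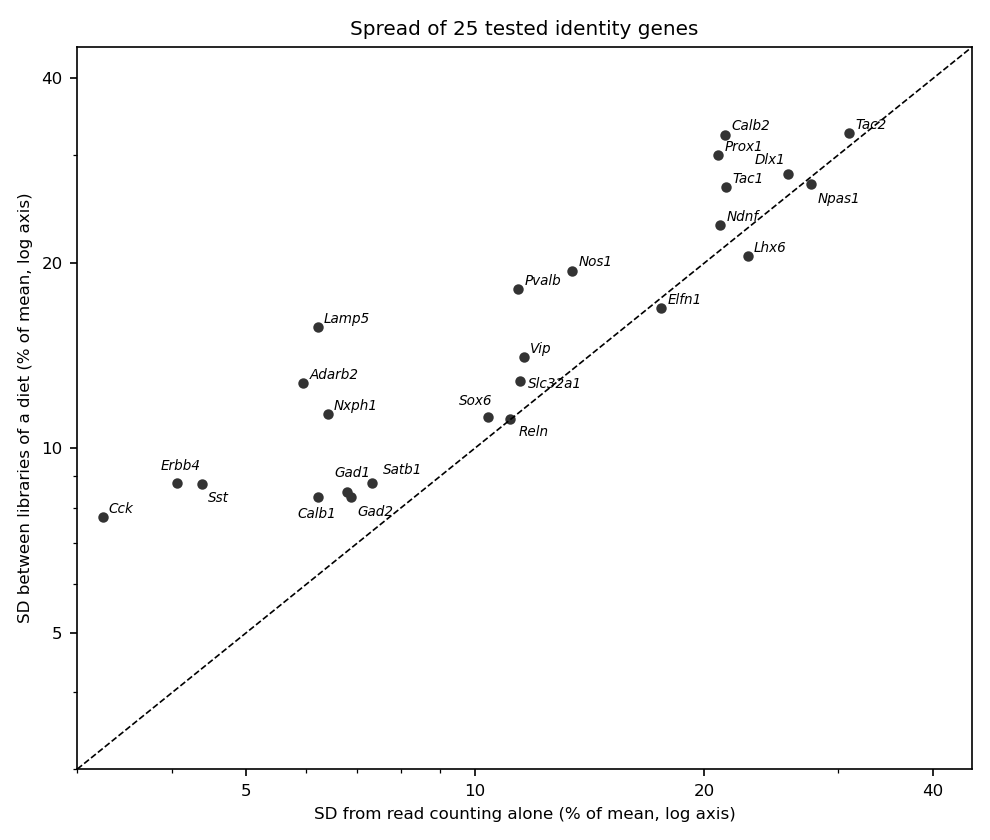
SD between libraries of a diet against the SD expected from read counting alone for the 25 tested identity genes (both as percent of the mean, log axes, 1 point per gene). The dashed line marks equality; Lamp5, Adarb2, Nxph1, Cck, Sst and Erbb4 lie well above it, and Reln and Lhx6 on or below it.

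The levels of the long genes were set against the share of a library's counts on other long genes. The gene spans of Erbb4, Adarb2, Sox6, Reln and Nxph1 each exceed 300 kb, and the 608 other genes of more than 300 kb held 17.7% to 20.7% of counts in controls and 17.3% to 19.7% with PLX5622. The relation was examined after the values were seen, within each diet, over 12 relations in all. For Erbb4, Pearson's r with that share was 0.91 in controls (exact permutation p = 0.0014, adjusted 0.012) and 0.79 with PLX5622 (exact p = 0.012, adjusted 0.037). Spearman's rho was 0.82 and 0.77 (exact p = 0.011 and 0.021, adjusted 0.061 each), and r without the 2 libraries farthest from the median share was 0.65 and 0.78. For Nxph1, r was 0.83 and 0.76 (exact p = 0.0063 and 0.018, adjusted 0.025 and 0.042), rho was 0.72 and 0.77 (exact p = 0.037 and 0.021, adjusted 0.074 and 0.061), and r without the 2 farthest libraries was 0.47 and 0.56. For Adarb2, r was 0.89 in controls (exact p = 0.0021, adjusted 0.012) and 0.60 with PLX5622 (exact p = 0.086, adjusted 0.129), rho was 0.77 and 0.75 (exact p = 0.021 and 0.025, adjusted 0.061 each), and r without the 2 farthest was 0.74 and 0.91. Sox6 and Reln, which also exceed 300 kb, did not pass in either diet. Their r lay between -0.21 and 0.62 (lowest exact p = 0.082, adjusted 0.129) and their rho between -0.35 and 0.27 (lowest exact p = 0.359, adjusted 0.478). Without the 2 farthest libraries r was between -0.67 and 0.72. The relations of Erbb4 and Nxph1 thus passed by r in both diets and did not pass by rho after adjustment, and the part that this share plays in the spread was not tested.

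**Figure D5:**
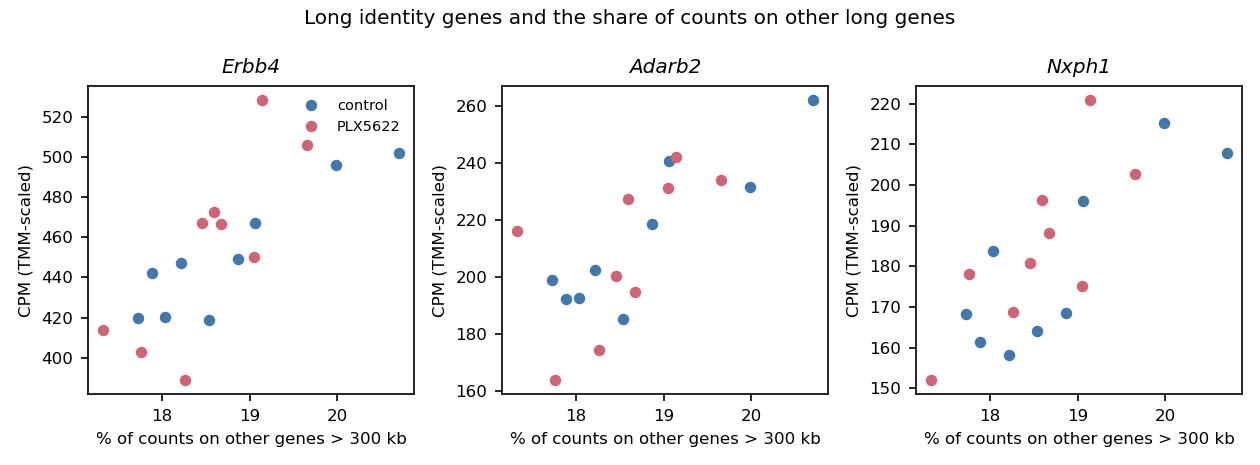
Level of Erbb4, Adarb2 and Nxph1 (CPM, TMM-scaled) against the share of the library's counts on other genes spanning more than 300 kb (percent), 1 point per library, control and PLX5622 in different colours. Libraries with a larger share on long genes tend to have higher values of all 3 genes, and the diets overlap along both axes.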

How the data were processed

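The deposited files hold whole-number read counts per Ensembl gene, 1 table per library, from single-end libraries per the labels' protocols that the series' design text calls 3′-biased. Per the submitters' processing notes, HTSeq 0.11.0, Bowtie2 2.3.4.3 and FastQC 0.11.8 were used with the builds GRCm38.p6 and mm10, besides R 3.5.1 and DESeq2 1.10.1. Their roles and the strand setting are not given by any source used here. Identifiers were matched without version to GENCODE M21 names (53620 matched; the 927 others hold 0.047% of counts).

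From these counts, edgeR 4.0.16 (R 4.3.3) was run with filterByExpr (minimum count 10, total 15), TMM scaling and a robust quasi-likelihood fit of diet over all 18 libraries; adjusted p (Benjamini-Hochberg) are over all tested genes, called under 0.05. SE and 95% intervals come from that fit. The fit was tested on counts simulated from means and dispersions estimated in these libraries, which cannot show whether the model suits them. Exact permutation tests of relations ran over all 362880 orders of 9 libraries. Alternatives were DESeq2 1.42.0, limma-voom (3.58.1), other scalings, filters and thresholds, thinning to 990136 counts, the animal number as covariate, and leaving out libraries. Animal numbers do not overlap between diets. All identity genes are named, with full values for the GABA genes, Pvalb, Sst, Vip, Lamp5 and those with the 5 smallest p for diet and 3 for position; of related genes, those called or with the 3 smallest p are named. The genes and lists were chosen with earlier results of these data known.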

Additional observations from a re-analysis of the deposited data

Results flagged for a closer look

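In 8 of 60 groups of 9 libraries (30 identity genes on 2 diets), 1 library stood apart from the rest of its diet, where Dixon's criterion sets apart about 1 in 20 independent groups by chance. The 60 groups share libraries and some rest on few counts, so that rate is only a guide. The share over all tested genes was not taken, so the count is not read as a trait of these genes. Sox6 was at 89.4 CPM in control 8, while the next control had 69.5 CPM. Prox1 was at 29.1 CPM in the same library. Control 8 also had the highest summed level of 6 oligodendrocyte markers among controls, 1845 CPM, against a control median of 1362 CPM. But control 4 was close to it at 1840.4 CPM, with Prox1 at 18.5 CPM and Sox6 at 63.7 CPM. The 5 markers of oligodendrocyte precursors, which also make Sox6, summed to 117 CPM in control 8. The precursor sum was 116 CPM in control 4 and 124 CPM in control 9, with Sox6 at 66.3 CPM in control 9. Within PLX5622, library 28 had both the highest Prox1, 27.9 CPM, and the highest oligodendrocyte sum, 2177 CPM. The relation of Prox1 with that sum was examined after the values were seen, among the 12 relations given with the long genes. Across the libraries of a diet, Pearson's r was 0.69 in controls (exact permutation p = 0.033, adjusted 0.067) and 0.53 with PLX5622 (exact p = 0.138, adjusted 0.184). Spearman's rho was 0.63 and 0.40 (exact p = 0.076 and 0.291, adjusted 0.130 and 0.437). Without the 2 libraries farthest from the median sum r was 0.43 and -0.25, lower in both diets and of changed sign with PLX5622. The libraries left out were controls 4 and 8, and PLX5622 28 and 32. Leaving them out narrowed the range of the sum, so the lower r cannot decide whether the relation holds. The log2 fold change of Sox6 with diet was 0.04, and 0.10 without control 8. That of Prox1 was -0.16, and -0.05 without control 8 and -0.26 without PLX5622 28. None of these was called (edgeR).

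Calb2 was at 32.5 CPM in control 10, with the next control at 17.4 CPM, and its log2 fold change with diet was -0.03 with that library and 0.15 without it, neither called. Gad2 was at 133 CPM in control 7, with the next at 152 CPM. Lhx6 was at 20.3 CPM in PLX5622 26, with the next at 16.5 CPM. Vip was at 40.6 CPM in PLX5622 34, with the next at 52.3 CPM. Of the genes with few counts, Cort was at 2.57 CPM in PLX5622 27 and Sncg at 3.82 CPM in control 9.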

How the results depend on the processing

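The count of identity genes called with diet was 0 in each direction under every alternative run. The count called with position was rerun only with DESeq2 and with 1 library left out, and was 0 in each direction there too. The lowest adjusted p of any identity gene was 0.567, for Calb1 without control 8 and PLX5622 28. An unadjusted p under 0.05 appeared for Elfn1 after thinning, for Calb1 without those 2 libraries, and for Slc32a1, Calb1 or Ndnf when 1 library was left out. Over all genes, 39 were called lower and 5 higher. The count of lower genes was 65 with DESeq2, 92 with no count filter and 8 at a mean of at least 50 counts. The count of higher genes was 20 with no count filter, 0 at a mean of at least 50 counts, 17 with position as covariate, 8 without control 8 and PLX5622 28, 10 at an adjusted p under 0.1, and 2 to 13 when 1 library was left out. The other scalings moved the median of all genes by less than 0.005 (log2). No paired analysis was possible because the animal numbers of the diets do not overlap. Depth limits Dlx2, Dlx5, Dlx6, Cort and Sncg, which did not pass the filter and had under 100 counts per diet. It also limits Tac2, which passed the filter with 95 counts in each diet and had the widest interval of the tested genes.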

Other observations

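Whether identity genes rose and fell together between animals was asked for 7 pairs in each diet, 14 relations in all. None passed after adjustment. Sst and Pvalb, sister classes by origin, had a Pearson's r of -0.65 in controls (exact permutation p = 0.048, adjusted 0.667). Their rho by Spearman was -0.72 (exact permutation p = 0.037, adjusted 0.516), and leaving out the 2 libraries most distant from the median Sst level gave r of -0.61. With PLX5622 r was -0.09 and rho -0.10 (exact p = 0.829 and 0.810, adjusted 0.893 and 0.872), and -0.30 without the 2 farthest. Gad1 and Gad2 had r of -0.14 in controls and 0.18 with PLX5622, with rho of -0.15 and 0.18 (lowest exact p = 0.644, adjusted 0.872) and r of -0.09 and 0.59 without the 2 farthest. Sst and Cort, related peptides of the same cells, had r of 0.33 and 0.37 and rho of 0.20 and 0.60 (lowest exact p = 0.097, adjusted 0.678), with r of 0.01 and 0.59 without the 2 farthest. Tac1, which striatal projection neurons also make, had r of -0.32 and -0.19 with the summed striatal markers, and rho of -0.37 and -0.12 (lowest exact p = 0.336, adjusted 0.872), with r of -0.64 and 0.07 without the 2 farthest. Tac1 itself was left out of that sum, most of which came from Foxp1 and Pde10a.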
